A study of Homo sapiens with 12 samples.

Results

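The Polycomb complex genes are 9 genes, EZH1, EZH2, SUZ12, EED, JARID2, CBX2, CBX6, CBX7 and CBX8, chosen by name and found by their Ensembl identifiers among the 58662 identifiers of the count tables that matched the annotation. All 9 passed the filter on low values, as did 12830 coding genes in all. The counts come from RNA-seq of cells labelled HEK293T, a human embryonic kidney line that carries the SV40 large T antigen. The study's text calls them HEK293, the line without it, and which of the names holds was not settled here. The cells were transfected with a control siRNA (siCTL) or with siRNA against CARM1, CHD4, HDAC2, GATAD2A or KDM1A (siCARM1, siCHD4, siHDAC2, siGATAD2A and siKDM1A), 2 libraries in each of the 6 groups. No treatment beyond the siRNA is given in the labels, all groups are the same cell line, and the time from transfection to harvest is not given in them. CARM1 is an arginine methyltransferase. CHD4, HDAC2 and GATAD2A are the remodeling ATPase, a histone deacetylase and a scaffold subunit of the NuRD complex, and KDM1A is a histone demethylase that the study counts among the NuRD subunits. The study compared the 5 knockdowns with siCTL to find genes that CARM1 and NuRD regulate in common.

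Polycomb group proteins keep genes silent, many of them genes for developmental transcription factors. They work mainly as a pair of complexes: PRC2 methylates histone H3 through EZH2 or its paralog EZH1, held together by SUZ12 and EED, and canonical PRC1 reads that methyl mark through the chromodomain of a CBX protein, of which one copy is present in a complex, and compacts chromatin. JARID2 is an accessory subunit that helps recruit PRC2. EZH2 is typically the form of dividing cells and EZH1 that of resting cells. RBBP4 and RBBP7, histone chaperones, are subunits of both PRC2 and NuRD, so that the complexes share parts.

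Sequencing depth lay between 19308315 and 28648657 counts on genes per library, and the fragments with several locations between 5.44% and 10.6%, the highest share in the first siCTL library. The targeted gene was lower in both libraries of its own knockdown than in both siCTL libraries in all 5 groups. On the log2 scale CARM1 fell by 2.37, HDAC2 fell by 2.35, GATAD2A fell by 1.74 and KDM1A fell by 2.59, while CHD4 fell by 0.54. CHD4 shares 46.91% of its exonic bases with another gene on the same strand, and pairs that lie on both are not counted, so its level rests on the rest of its exons. CHD4 also fell by 0.32 in siCARM1, and GATAD2A was higher in siCHD4 by 1.09. Of the markers of HEK293 cells, KRT8, KRT18, VIM and NEFL were abundant, PAX2 lay between 0.367 and 2.20 CPM in the group means and NEFM was at most 0.651 CPM. The leukocyte, endothelial and hepatocyte markers PTPRC, CD3E, CDH5 and ALB and the fibroblast marker DCN were below 0.5 CPM in every group mean, COL1A1, also on the fibroblast list, lay between 80.4 and 123 CPM and the muscle marker MYOD1 between 0.493 and 2.21 CPM, the highest being that of siCHD4, and PECAM1 was not matched. In bulk RNA, fewer cells of a kind and less RNA per cell cannot be told apart.

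The members' genes were spread over 5 chromosomes in GRCh37, the build that hg19 names. EZH2 was at chr7:148504349-148581413 on the minus strand, EED at chr11:85912254-85989855 on the plus strand and JARID2 at chr6:15246300-15522273 on the plus strand. Chromosome 17 held EZH1 at chr17:40852293-40897067 on the minus strand, SUZ12 at chr17:30264026-30328057 on the plus strand, CBX2 at chr17:77751947-77761782 on the plus strand and CBX8 at chr17:77765931-77775482 on the minus strand. CBX2 and CBX8 lay tail to tail with 4.1 kb between them. On chromosome 22, CBX6 at chr22:39257427-39268254 and CBX7 at chr22:39516172-39548685, both on the minus strand, were 247.9 kb apart. All counts are of exons, and the canonical transcripts had 5 exons in CBX2, CBX6 and CBX8, 6 in CBX7, 12 in EED, 16 in SUZ12, 18 in JARID2, 20 in EZH2 and 21 in EZH1. CBX7 shares 17.92% of its exonic bases with a lncRNA on the opposite strand, which the strand-specific counts keep apart, and 3.67% with the pseudogene COX5BP7 on the same strand. Copies of the members exist elsewhere: SUZ12P1 held 521 to 949 counts per library, and EZH2P1 and EEDP1 held 0 in all 12 libraries. Pairs that fit SUZ12 and SUZ12P1 equally well have several locations and are left out, so some SUZ12 pairs may be missing from its count.

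Promoter sequences of 300 bases, 250 before the start of the gene and 50 after it, were available from RefSeq (GRCh38.p14) for EZH1, EZH2, SUZ12, EED, JARID2, CBX6 and CBX7, with a second start for EZH2 and for JARID2. They were searched on both strands for TTTCCCGC, TTTCGCGC, TTTGCCGC and TTTGGCGC, forms of the E2F motif, because E2F1 itself moved in these libraries and EZH2 is known as an E2F target. Of 35116 promoters of all genes, 3.31% held at least 1 of these motifs. Among the members, 1 promoter each of EZH1, EZH2 and SUZ12 held one. They are shown because all 3 genes are parts of the PRC2 core, with the match in capitals:

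EZH2, chr7:148884242-148884541, minus strand: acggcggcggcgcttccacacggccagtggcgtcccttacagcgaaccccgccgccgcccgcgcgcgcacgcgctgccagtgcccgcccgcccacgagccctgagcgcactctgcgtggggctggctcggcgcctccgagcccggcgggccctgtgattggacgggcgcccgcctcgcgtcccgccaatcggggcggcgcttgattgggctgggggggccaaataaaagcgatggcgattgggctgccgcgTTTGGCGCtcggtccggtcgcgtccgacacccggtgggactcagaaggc

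SUZ12, chr17:31936757-31937056, plus strand: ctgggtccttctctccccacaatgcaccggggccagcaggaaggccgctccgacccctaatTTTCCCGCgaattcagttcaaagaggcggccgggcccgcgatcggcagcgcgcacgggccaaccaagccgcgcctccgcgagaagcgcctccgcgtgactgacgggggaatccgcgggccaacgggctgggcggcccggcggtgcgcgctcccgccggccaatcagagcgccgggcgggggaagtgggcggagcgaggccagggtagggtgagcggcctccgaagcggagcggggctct

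EZH1, chr17:42744991-42745290, minus strand: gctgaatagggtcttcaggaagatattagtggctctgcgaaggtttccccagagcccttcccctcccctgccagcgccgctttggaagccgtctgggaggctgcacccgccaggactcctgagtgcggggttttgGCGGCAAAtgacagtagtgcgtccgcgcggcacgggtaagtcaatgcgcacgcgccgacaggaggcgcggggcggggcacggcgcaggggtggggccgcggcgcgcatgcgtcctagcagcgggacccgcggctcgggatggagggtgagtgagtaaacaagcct

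The match in SUZ12 began 189 bases before the start of the gene and that in EZH1, on the opposite strand, 115 bases before it. In EZH2 it lay at the start itself, 1 base after it. A match is a run of letters and not evidence of binding. The promoters of CBX6 and CBX7 held no match and were among the richest in CpG, the dinucleotide that forms CpG islands: CBX6 had 47 and CBX7 had 50, more than in 97.6% and 98.7% of all promoters, against a median of 14. They are shown, with every CpG in capitals, as the promoters of the CBX members of chromosome 22, which moved in opposite directions in siCHD4:

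CBX6, chr22:38872167-38872466, minus strand: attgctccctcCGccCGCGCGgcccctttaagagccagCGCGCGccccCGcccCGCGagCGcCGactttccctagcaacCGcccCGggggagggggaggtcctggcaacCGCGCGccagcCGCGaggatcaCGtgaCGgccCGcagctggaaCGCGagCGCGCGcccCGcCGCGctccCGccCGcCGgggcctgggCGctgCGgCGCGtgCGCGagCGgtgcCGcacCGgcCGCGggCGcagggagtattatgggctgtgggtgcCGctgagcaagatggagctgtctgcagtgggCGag

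CBX7, chr22:39152631-39152930, minus strand: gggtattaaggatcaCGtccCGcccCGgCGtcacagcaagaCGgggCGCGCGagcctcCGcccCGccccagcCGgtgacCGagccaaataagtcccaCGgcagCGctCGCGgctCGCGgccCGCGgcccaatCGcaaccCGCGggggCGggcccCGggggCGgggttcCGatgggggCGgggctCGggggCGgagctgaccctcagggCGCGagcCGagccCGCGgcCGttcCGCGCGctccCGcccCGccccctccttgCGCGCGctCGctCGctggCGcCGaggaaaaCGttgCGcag

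The lowest CpG count of a member's promoter was that of EED, 16, and the highest outside the CBX genes that of the EZH2 promoter printed above, 46.

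Levels between genes can be set side by side only per length. FPKM was computed with the union of a gene's annotated exons and, as an alternative chosen after the data were seen, with the length of the canonical transcript. By both, CBX6 had the highest mean level in siCTL (30.1 and 39.7 FPKM) and CBX7 the lowest (2.32 and 4.22 FPKM) among the 9 members. CBX2 was second by both (27.9 and 34.2 FPKM), and the SDs of CBX2 and CBX6 over the 2 libraries lay between 0.012 and 1.23. The order of the PRC2 genes depended on the length: EED stood at 8.60 FPKM by the union and 28.8 FPKM by the canonical length, and EZH2 at 5.29 and 21.5 FPKM. The ratio of EZH2 to EZH1 in a library was 0.562 to 0.719 by the union and 1.51 to 1.93 by the canonical transcript, so which of the 2 methyltransferase genes had the higher level could not be settled from gene counts. The per-length order of these genes is therefore a description only.

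The core PRC2 genes EZH1, EZH2, SUZ12 and EED were the members that moved least. A gene is called here at an adjusted p of 0.05 or less, by edgeR's quasi-likelihood test with Benjamini-Hochberg adjustment over all tested genes, together with a fold of at least 1.2. None of the 20 tests of these 4 genes against siCTL was called, by edgeR or by DESeq2. In edgeR 5 of the 20 had an unadjusted p under 0.05, and 4 an adjusted p of 0.05 or less with a fold under the minimum. Of all 12830 genes, edgeR called 14.5% lower and 14.9% higher in siCARM1, and 24.9% and 24.0% in siCHD4. The shares were 9.0% and 10.6% in siHDAC2, 18.2% and 15.7% in siGATAD2A, and 11.5% and 14.2% in siKDM1A. With 4 genes, no lack of calls is claimed. EZH1 had 58.7 and 60.7 CPM (counts scaled by the effective library size) in siCTL, and all 12 libraries lay between 58.7 and 68.3 CPM. Its log2 fold changes against siCTL lay between 0.03 and 0.13. EED had 61.5 and 65.8 CPM in siCTL and 58.7 to 68.6 CPM over all libraries, with log2 fold changes between -0.06 and 0.04. The 95% intervals from the standard errors, over the 5 comparisons, reached from -0.09 to 0.25 for EZH1 and from -0.19 to 0.16 for EED. For these 2 genes they lay within the 1.2-fold minimum of 0.26 on the log2 scale. Those of EZH2 reached from -0.11 to 0.3 and those of SUZ12 from -0.1 to 0.34, past that minimum. A 1.2-fold rise is thus not excluded for EZH2 and SUZ12.

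EZH2, the catalytic subunit typical of dividing cells, had 60.6 and 60.1 CPM in siCTL. It read 59.1 and 61.6 CPM in siCARM1, one below and one above both controls, and 61.5 and 63.5 CPM in siKDM1A. In siCHD4 it read 68.0 and 69.9 CPM, in siHDAC2 69.3 and 66.7 CPM and in siGATAD2A 65.9 and 66.2 CPM, all above both control libraries. The log2 fold changes were 0.19 ± 0.06 (SE, adjusted p = 0.0029), 0.17 ± 0.06 (adjusted p = 0.0159) and 0.13 ± 0.06 (adjusted p = 0.0472) in these 3 knockdowns by edgeR, under the fold minimum in each. In siHDAC2 and siGATAD2A the adjusted p did not hold with 1 library left out, reaching 0.115 and 0.165. SUZ12 had 109.0 and 103.0 CPM in siCTL. In siCARM1 it read 115.8 and 132.5 CPM, both above both controls, 0.23 ± 0.06 on the log2 scale (adjusted p = 0.00155), also under the fold minimum. The 2 siCARM1 libraries differed by more for SUZ12 than those of any other group, and leaving out either the first siCARM1 library (0.32) or the first siCTL library (0.27) would bring this change past the fold minimum. Without the second siCARM1 library, the higher of them, it was 0.13 (adjusted p = 0.0822). The other 8 SUZ12 libraries lay between 106.0 and 116.2 CPM.

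**Figure D1:**
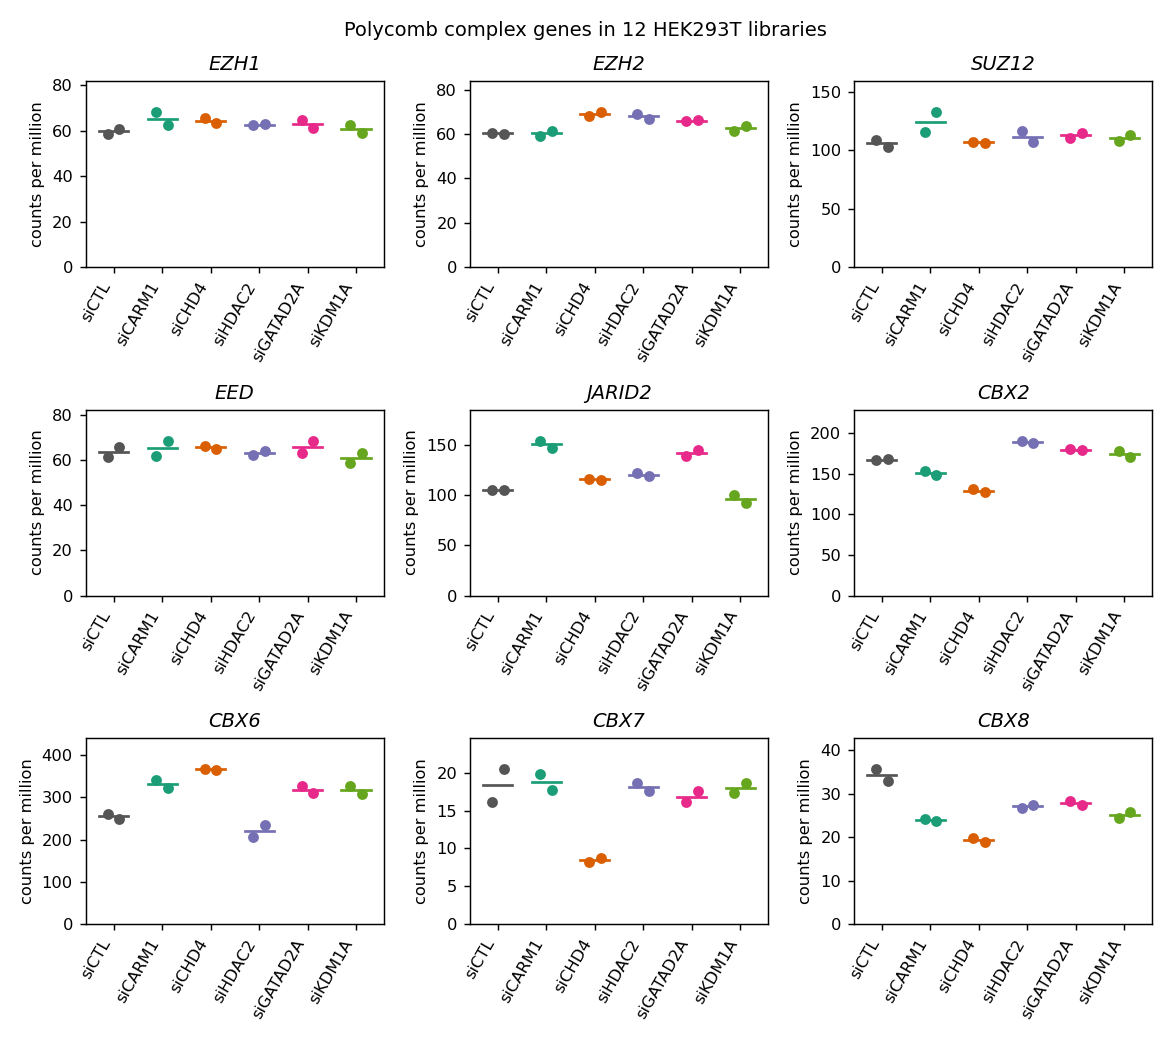
CPM of each of the 9 genes in the 12 libraries, by siRNA group; points are libraries, horizontal lines are the means of 2, and every axis starts at 0. EZH1, EZH2, SUZ12 and EED lie nearly level across the groups, JARID2 stands highest in siCARM1 and siGATAD2A, CBX6 highest in siCHD4 and lowest in siHDAC2, CBX7 falls in siCHD4, and CBX8 is highest in the siCTL libraries.

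JARID2, the PRC2 accessory subunit, was the only one of the 5 PRC2 members called against siCTL. It had 105.0 and 105.7 CPM in siCTL, 154.6 and 146.7 CPM in siCARM1 and 138.8 and 144.7 CPM in siGATAD2A. It rose by a log2 fold change of 0.52 ± 0.05 (adjusted p = 5.62e-10) in siCARM1 and of 0.43 ± 0.05 (adjusted p = 1.58e-08) in siGATAD2A, with both libraries of each knockdown above both controls (edgeR). In siCHD4 the readings were 116.5 and 115.4 CPM and in siHDAC2 121.9 and 119.2 CPM, above both controls by 0.14 and 0.19 on the log2 scale and under the fold minimum. The adjusted p of 0.0171 in siCHD4 rose to as much as 0.109 with a library left out. In siKDM1A they were 100 and 92.1 CPM, below both controls, a log2 fold change of -0.13 (adjusted p = 0.0337) that was also under the minimum. It was -0.08 without the second siKDM1A library (adjusted p = 0.358), and without the first or the second siCTL library the adjusted p was 0.0887 or 0.118. JARID2 thus had its lowest and highest readings in different knockdowns. The difference between siCARM1 and siKDM1A was tested directly and was 0.65 ± 0.05 (adjusted p = 4.97e-12), and that between siGATAD2A and siKDM1A 0.56 ± 0.05. No difference was called between siCARM1 and siGATAD2A (0.09 ± 0.05, adjusted p = 0.122).

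CBX8, a chromodomain subunit of canonical PRC1, was the member lower in all 5 knockdowns. It had 35.7 and 33.0 CPM in siCTL, from 652 and 717 counts, and every one of the 10 knockdown libraries was below both. The readings were lowest in siCHD4 (19.9 and 18.9 CPM), followed by siCARM1 (24.2 and 23.7 CPM), siKDM1A (24.4 and 25.8 CPM), siHDAC2 (26.8 and 27.5 CPM) and siGATAD2A (28.3 and 27.4 CPM). CBX8 fell by 0.82 ± 0.08 in siCHD4, by 0.51 ± 0.08 in siCARM1, by 0.45 ± 0.08 in siKDM1A, by 0.34 ± 0.08 in siHDAC2 and by 0.30 ± 0.07 in siGATAD2A on the log2 scale. The adjusted p-values of edgeR, in this order, were 1.3e-10, 1.75e-06, 1.6e-05, 0.000782 and 0.00119. The 5 comparisons share the same 2 siCTL libraries, so they are not 5 independent observations. The share of all tested genes that were lower in all 5 was not computed here. The paper reports a set of genes that CARM1 and NuRD positively regulate in common, so this pattern is not shown to be particular to CBX8. The call in siGATAD2A was lost without the first siCTL library (-0.24, adjusted p = 0.0302, under the fold minimum). Between knockdowns, with no control library involved, CBX8 was lower in siCHD4 than in each of the 4 others, by 0.31 against siCARM1, 0.49 against siHDAC2, 0.52 against siGATAD2A and 0.37 against siKDM1A.

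CBX7, the CBX gene of the lowest level, fell in siCHD4 and was not called in the other knockdowns. It had 16.2 and 20.5 CPM in siCTL, from 296 and 446 counts, and 8.2 and 8.8 CPM in siCHD4, from 186 and 206 counts. It fell by 1.12 ± 0.12 on the log2 scale (adjusted p = 8.08e-10), to 0.461 of the control level. The readings of the other knockdowns lay between 16.1 and 19.8 CPM, all inside or close to the range of the controls, with log2 fold changes between -0.13 and 0.03. CBX7 was also lower in siCHD4 than in each other knockdown, by 0.99 to 1.15 on the log2 scale, in contrasts that hold no control library. The SE of CBX7 was about 0.1 in the 4 comparisons not called. The SE is not the limit of detection: the change of -0.13 in siGATAD2A exceeded its SE and had an unadjusted p of 0.217 (edgeR). A change of that size was thus not told apart from no change at this depth. A call also needs the fold minimum of 0.26 on the log2 scale, so smaller changes could not be called. Without the first siCTL library, the lower of the 2, CBX7 would be called lower in siGATAD2A as well (-0.28, adjusted p = 0.0463), while without the second it stood at 0.05 there (adjusted p = 0.756).

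CBX2, a chromodomain subunit whose loss disturbs sex development, was called lower in siCHD4 and in no other knockdown. It had 167.0 and 167.9 CPM in siCTL and 131.3 and 127.6 CPM in siCHD4, and fell by 0.37 ± 0.04 on the log2 scale (adjusted p = 1.47e-08). In siCARM1 it read 153.8 and 148.0 CPM, below both controls by 0.15 (adjusted p = 0.00615) and under the fold minimum. In siHDAC2 it read 191.1 and 187.8 CPM and in siGATAD2A 180.7 and 178.9 CPM, above both controls by 0.18 (adjusted p = 0.0019) and 0.10 (adjusted p = 0.0488), under the fold minimum as well. The adjusted p in siGATAD2A was 0.121 to 0.182 with any 1 of its 4 libraries left out. The tested differences put CBX2 lower in siCHD4 than in siHDAC2 (by 0.55), siGATAD2A (by 0.47) and siKDM1A (by 0.43), and lower in siCARM1 than in siHDAC2 (by 0.33). CBX2 in siCHD4 was 0.22 below siCARM1, a difference under the fold minimum.

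CBX6, the most abundant member per length, moved upward in 4 knockdowns. It had 259.4 and 249.6 CPM in siCTL, 340.7 and 320.7 CPM in siCARM1, 366.7 and 364.9 CPM in siCHD4, 325.9 and 309.5 CPM in siGATAD2A and 327.0 and 307.8 CPM in siKDM1A. CBX6 rose by 0.38 ± 0.05 in siCARM1 (adjusted p = 1.39e-07), 0.52 ± 0.05 in siCHD4 (6.01e-11), 0.32 ± 0.05 in siGATAD2A (1.72e-06) and 0.32 ± 0.05 in siKDM1A (3.33e-06), with both libraries above both controls in each. In siHDAC2 it read 205.7 and 233.1 CPM, below both controls. The log2 fold change there was -0.21 ± 0.05 (adjusted p = 0.00114), under the fold minimum, and -0.31 without the second siHDAC2 library, which would pass it. Without the first siHDAC2 library it was -0.13 (adjusted p = 0.0697). CBX6 was lower in siHDAC2 than in each of the 4 other knockdowns, by 0.59 against siCARM1, 0.73 against siCHD4, 0.53 against siGATAD2A and 0.53 against siKDM1A. CBX6 and CBX8 thus moved in opposite directions against siCTL in 4 knockdowns, and both were below the controls in siHDAC2.

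**Figure D2:**
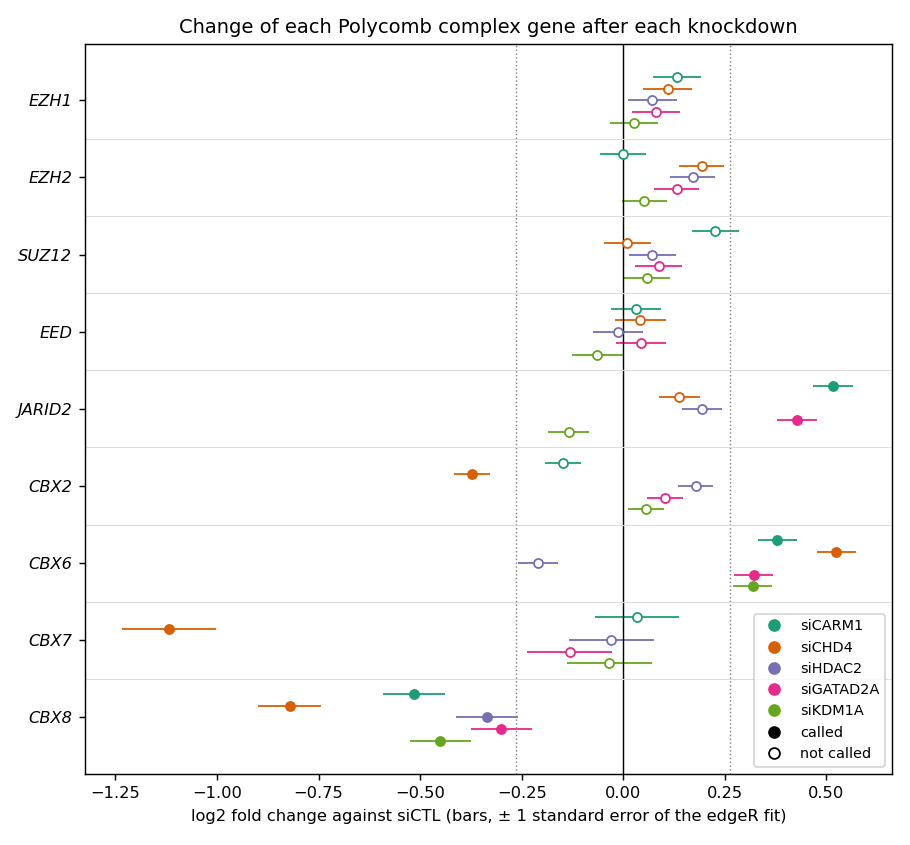
Log2 fold change of each gene in each knockdown against siCTL with bars of 1 standard error; filled points passed an adjusted p of 0.05 and a fold of 1.2, and dotted lines mark that fold. The 4 core PRC2 genes have no filled point, CBX8 has 5 on the left side between -0.82 and -0.30, CBX6 has 4 on the right side between 0.32 and 0.52, and CBX7 has 1, at -1.12.

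Counted over the 9 members, siCARM1 had 3 called (1 lower and 2 higher), siCHD4 had 4 (3 lower and 1 higher), siHDAC2 had 1 (lower), siGATAD2A had 3 (1 lower and 2 higher) and siKDM1A had 2 (1 lower and 1 higher). Of all 12830 genes, 14.5% were called lower and 14.9% higher after siCARM1, 24.9% and 24.0% after siCHD4, 9.0% and 10.6% after siHDAC2, 18.2% and 15.7% after siGATAD2A, and 11.5% and 14.2% after siKDM1A. With 9 genes, these counts are near the background, and no excess of calls among the members is claimed. The median log2 fold change of the members was between 0.03 and 0.09 in the 5 comparisons, against medians between -0.0024 and 0.0051 over all tested genes.

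Between knockdowns, 23 of the 90 differences of the members were called, 4 in each of the pairs of siCHD4 with KDM1A, GATAD2A or HDAC2 knockdown, 3 in siCARM1 with siCHD4 and with siHDAC2, 2 in siHDAC2 with siKDM1A and 1 each in siCARM1 with siKDM1A, siHDAC2 with siGATAD2A and siGATAD2A with siKDM1A. The pair of siCARM1 and siGATAD2A had none by edgeR or DESeq2, with 4 of 9 at an unadjusted p under 0.05. Over all genes, in the same order, the shares called were 47.7%, 44.8%, 48.8%, 47.7%, 19.3%, 14.3%, 21.0%, 29.5%, 32.1% and 33.8%. EZH1, EZH2, SUZ12 and EED had 0 calls in 40 such tests by either tool, 9 of them with an unadjusted p under 0.05 and 8 with an adjusted p of 0.05 or less in edgeR. JARID2 had 7 of 10 pairs called, and CBX2, CBX6, CBX7 and CBX8 had 4 each.

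Since 1 CBX protein enters a canonical PRC1 complex, the share of each of the 4 CBX members in the sum of their FPKM was computed per library with the canonical length, as a description of RNA and not of complexes. In siCTL, CBX6 made up 45.8% ± 0.87 (SD, n = 2), CBX2 39.4% ± 0.48, CBX8 9.96% ± 0.47 and CBX7 4.86% ± 0.85. In siCHD4 the CBX6 share was 63.2% ± 0.35 and the shares of CBX2, CBX8 and CBX7 were 29.2% ± 0.33, 5.40% ± 0.14 and 2.16% ± 0.12. In siHDAC2 CBX2 had the largest share, 46.1% ± 1.95, above the 40.8% ± 2.39 of CBX6, the one group in which the order of these 2 genes was exchanged. The summed level of the 4 genes lay between 83.4 ± 2.2 FPKM in siHDAC2 and 97.1 ± 2.0 FPKM in siGATAD2A, with 86.8 ± 1.0 in siCTL and 87.9 ± 0.74 in siCHD4. With the union of exons the CBX6 share was 44.1% in siCTL and 61.5% in siCHD4.

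Genes near the members were described in the same way. Within 250 kb of the start of CBX6 there were 13 other tested genes, 5 lower, 4 higher and 4 not called in siCHD4, and around CBX7 there were 9, of which 3 were lower, 1 higher and 5 not called. The 2 windows overlap, and the 3 lower genes around CBX7, APOBEC3B, APOBEC3C and APOBEC3F, are also counted around CBX6. Of all genes, 24.9% were lower and 24.0% higher in siCHD4. In the other knockdowns 0 to 4 of the 13 genes were lower and 2 to 4 higher, and 0 to 2 of the 9 were lower and 1 higher. Over all genes the shares in these knockdowns were 9.0% to 18.2% lower and 10.6% to 15.7% higher. No excess of calls among the neighbours is claimed. JARID2 had no tested neighbour within 250 kb.

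Of the 35 other Polycomb genes, 34 were tested. They hold 9 other PRC2 subunits, 22 other PRC1 subunits and 4 of the PR-DUB deubiquitinase, which opposes PRC1. Those called lower and higher numbered 4 and 3 in siCARM1, 5 and 8 in siCHD4, 2 and 2 in siHDAC2, 3 and 8 in siGATAD2A, and 5 and 3 for siKDM1A. Of all 12830 genes, 14.5% were called lower and 14.9% higher in siCARM1, and 24.9% and 24.0% in siCHD4. The shares were 9.0% and 10.6% in siHDAC2, 18.2% and 15.7% in siGATAD2A, and 11.5% and 14.2% in siKDM1A. No excess of calls among the 34 genes is claimed. The median log2 fold change of the 34 genes lay between -0.08 and 0.10. None of the 3 tested PR-DUB genes was called in any of the 5 comparisons by edgeR or DESeq2, with 5 of 15 tests at an unadjusted p under 0.05.

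KDM2B, which brings a variant PRC1 to unmethylated CpG islands, was the other Polycomb gene higher in all 5 knockdowns. Its log2 fold changes lay between 0.31 in siKDM1A and 0.42 in siGATAD2A, each with an SE of 0.05. PCGF6, the PCGF subunit of a germline-gene PRC1, was called higher in 4 knockdowns by 0.27 to 0.38 and stood at 0.23 in siHDAC2, under the fold minimum. LCOR, which encodes a ligand-dependent corepressor and, in a long form, a PRC2 subunit, was called higher in 4 by 0.38 to 0.66 and stood at 0.12 in siCHD4. PHF19, a Polycomb-like protein that helps PRC2 bind chromatin, was called lower in 4, by 0.27 in siHDAC2, 0.41 in siGATAD2A, 0.54 in siCARM1 and 0.57 in siKDM1A. In siCHD4 PHF19 stood at -0.08, uncalled. KDM2B, PCGF6, LCOR and PHF19 were compared with the same 2 siCTL libraries throughout. How common calls in 4 or 5 comparisons were among all tested genes was not computed.

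RBBP4 and RBBP7, shared by PRC2 and NuRD, were not alike. RBBP4 was not called in any knockdown by edgeR or DESeq2 (4 of 5 at an unadjusted p under 0.05, log2 fold changes between -0.18 and 0.20). RBBP7 fell by 0.59 ± 0.04 in siGATAD2A (adjusted p = 1.68e-12), from 217 to 145 CPM in the group means, and stood at -0.24 in siKDM1A and 0.20 in siCARM1 without being called. E2F1, the transcription factor of the motif searched above, fell by 0.61 in siCARM1 and rose by 0.53 in siGATAD2A. In these 2 knockdowns the members whose promoters held the motif, EZH1, EZH2 and SUZ12, had log2 fold changes of 0.13, -0.0006 and 0.23 in siCARM1 and of 0.08, 0.13 and 0.09 in siGATAD2A, none of them called.

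**Figure D3:**
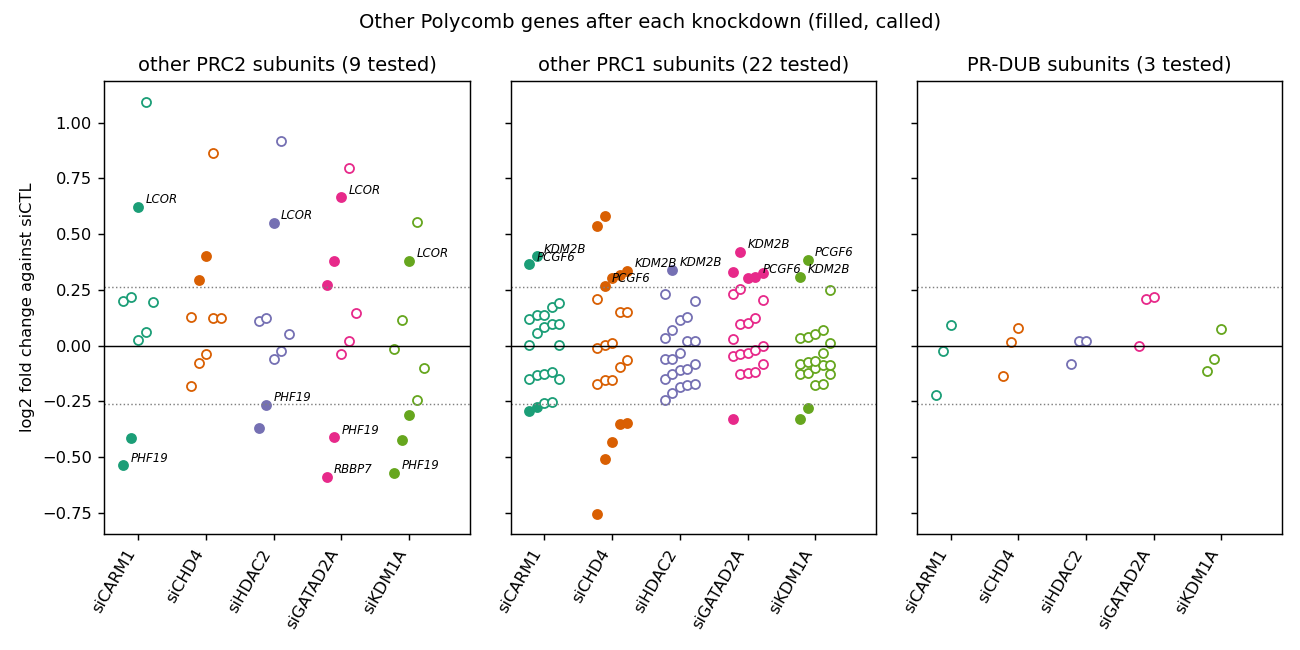
Log2 fold change against siCTL of 9 other PRC2 subunits, 22 other PRC1 subunits and 3 PR-DUB subunits in each knockdown; each point is a gene, filled points passed the call, dotted lines mark a fold of 1.2. KDM2B is filled in all 5 columns between 0.31 and 0.42, PHF19 in 4 and RBBP7 in the siGATAD2A column at -0.59. The open points highest in the first panel are EZHIP, with 7 to 32 counts per library, named after its values were seen. EZHIP passed the filter of 0.5 FPKM only through siCARM1, at 0.513 FPKM.

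Developmental regulators that Polycomb complexes typically silence were described by the same test. Of 33 listed, 27 were tested, with 5 lower and 4 higher after siCARM1, 4 and 5 after siCHD4, 4 and 1 after siHDAC2, 5 and 4 after siGATAD2A, and 6 and 4 after siKDM1A. Over all 12830 genes the shares lower and higher were 14.5% and 14.9% after siCARM1 and 24.9% and 24.0% after siCHD4. They were 9.0% and 10.6% after siHDAC2, 18.2% and 15.7% after siGATAD2A, and 11.5% and 14.2% after siKDM1A. No excess of calls among the 27 is claimed. The medians of the 27 genes lay between -0.16 and -0.02 on the log2 scale. GATA4 was lower in all 5, by 0.29 to 0.64, and PAX9 in 4, by 0.31 to 0.40. All comparisons share the siCTL libraries, and how common such repeated calls were among all tested genes was not computed. FOXQ1 was called higher in all 5 from 5 and 3 counts in siCTL to 13 to 49 counts in the knockdown libraries, and FOXA2 in 4 from 13 and 18 counts, so that their size is loosely measured. Changes of at least 2-fold were called for OLIG2 (1.08) and EOMES (1.06) in siCHD4, higher, and for SIX2 (-1.07) and BARX1 (-1.09) in siGATAD2A and TBXT in siCARM1 (-1.10) and siGATAD2A (-1.10), lower. In siCTL, FOXQ1 (0.073 FPKM), FOXA2 (0.267 FPKM) and EOMES (0.380 FPKM) were under the filter of 0.5 FPKM. They were tested only because knockdown groups exceeded it, so their rises are not independent of the filter. The listed regulators moved in both directions within a knockdown.

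The genes whose log2 CPM over the 12 libraries was most like that of a member were listed by Pearson's r, as a description over libraries that share groups. The nearest to CBX7 were CHEK2 (0.98), SEC22C (0.98) and RNF215 (0.98), and to CBX8 MLST8 (0.97) and SPEN (0.97). CBX6 was nearest to TRAP1 (0.98), IER2 (0.97) and CCN1 (0.96), and CBX2 to ZNF677 (0.97), MOSPD2 (0.96) and TRIM5 (0.96). JARID2 had ALDH6A1, DIP2B and MYCBP2 (all 0.94), EZH2 had ZNF431, CCNL1 and ARMCX3 (0.92 to 0.94), SUZ12 had USP24, RBM26 and PDS5A (0.90 to 0.92), EED had SLC25A36, ITGAE and CAB39 (0.83 to 0.86) and EZH1 had RBM14, RIN3 and DAG1 (0.80 to 0.81). Among the members themselves the highest r was that of CBX2 with CBX7, 0.77, and the lowest that of CBX2 with CBX6, -0.70.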

How the data were processed

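RNA-seq was done in 12 libraries of cells labelled HEK293T, 2 for each of 6 siRNA groups, from directional libraries. The authors deposited whole-number counts of read pairs, 1 per Ensembl gene, in the layout of STAR's gene counts, and the submitters' processing notes name STAR 2.7.10, CASAVA 1.4 and hg19. The annotation release is not given in the sources used here. For their own figures the methods name TopHat, HOMER and DESeq2. Counts of the reverse strand were used. Pairs with several locations or on several genes are left out of them. Of 60660 identifiers, 58662 matched GENCODE release 44 on GRCh37, 44 pseudoautosomal copies and 1954 others were left out, and the unmatched held 1.75% to 2.61% of the counts.

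CPM and FPKM were computed from the counts. The 12830 coding genes whose group mean exceeded an FPKM of 0.5 in 1 or more groups were tested by edgeR 4.0.16 (R 4.3.3) with TMM factors (0.968 to 1.01) in a model of 6 group means, with the 5 knockdowns compared with siCTL and the 10 pairs of knockdowns with each other. p-values were adjusted by Benjamini and Hochberg within each comparison over all genes. DESeq2 1.42.0 was an alternative. The number of libraries, 2 per group, limits the precision; an exact permutation test of 2 against 2 cannot go below p = 0.333, so no such test is given. Nothing says that replicates are separate cultures, so p-values measure the spread between these libraries, which may be technical. The 2 libraries of a group differed by more than sampling noise (chi-square of 1.77 to 4.99 per degree of freedom). Which library was sequenced at which provider is not given, so that was not tested.

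The members and lists were chosen with earlier results of these data known. All members, the targeted genes, RBBP4, RBBP7 and E2F1 are named, as are other Polycomb genes and developmental regulators called in the same direction in at least 4 comparisons or changed at least 2-fold and called in any, and for each member the 3 genes of highest r. Some genes that these rules name are not reported here. The neighbour window of 250 kb and the motif were chosen after the data were seen. The scripts were tested on simulated data.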

Additional observations from a re-analysis of the deposited data

Results flagged for a closer look

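For 3 members, effects of 2 knockdowns against the same siCTL libraries pointed in opposite directions, each at an adjusted p of 0.05 or less, and edgeR called the direct contrast of these knockdowns as well. CBX6 was 0.73 ± 0.05 (SE) higher on the log2 scale in siCHD4 than in siHDAC2 (adjusted p = 3e-14), from 0.52 and -0.21 against siCTL. CBX2 stood -0.55 ± 0.04 in siCHD4 against siHDAC2 (adjusted p = 2.76e-12), from -0.37 and 0.18. JARID2 was 0.65 ± 0.05 higher in siCARM1 than in siKDM1A (adjusted p = 4.97e-12), from 0.52 and -0.13. In each of the 3 pairs both libraries of one group were above both libraries of the other. The pairs were picked for wide, called differences, so this separation adds no support, and its share over all tested genes was not computed. The pair shown for each gene is the widest of those that met these conditions. The negative side of CBX6 and of JARID2 and the positive side of CBX2 were under the fold minimum of 1.2 against siCTL. The adjusted p of that side was over 0.05 without the first siHDAC2 library for CBX6 (-0.13, adjusted p = 0.0697), and for JARID2 without the second siKDM1A library (-0.08, adjusted p = 0.358) or without either siCTL library (0.0887 and 0.118), so that for CBX6 and JARID2 the opposite directions against siCTL rest on those libraries. For CBX2 in siHDAC2 it was at most 0.0237.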

How the results depend on the processing

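Under the alternative settings, 569 of 585 log2 fold changes of the members stayed on the same side of the call, 15 passed it in addition and 1 lost it. Of the 15, 11 came from dropping the fold minimum, a setting that keeps the values of the main fit and can only add calls. No called change turned its sign, but 22 recomputed values of 11 uncalled ones did, 18 of them with a library left out, in CBX7, EED, EZH1, EZH2 and SUZ12. Of 11 changes with an adjusted p of 0.05 or less under the fold minimum, 7 had an adjusted p over 0.05 without 1 library. DESeq2, RLE size factors, a fit of only the 2 groups compared, the replicate block, counts without strand and 3 other filters left the members called at 3, 4, 1, 3 and 2 in siCARM1, siCHD4, siHDAC2, siGATAD2A and siKDM1A. Without the fold minimum the members called were 5 in siCARM1, siHDAC2 and siGATAD2A, 6 in siCHD4 and 3 in siKDM1A. The other Polycomb genes called then numbered 17 after siCARM1, 22 after siCHD4, 13 after siHDAC2, 17 after siGATAD2A, and 14 after siKDM1A. The differences between knockdowns were 40 in place of 23. The shares of all tested genes without the fold minimum were not computed. The shares given above hold that minimum and are no background for these counts. With each library left out in turn, the members called were 3 to 4 in siCARM1 and 1 to 2 in siHDAC2, the other Polycomb genes in siCARM1 7 to 13, and the differences between knockdowns 22 to 26. Those 13 and 2 came without the first siCARM1 and the second siHDAC2 library. The replicate numbers do not pair the libraries, with correlations of same-numbered deviations between -0.142 and 0.136 over 15 pairs of groups, and with the replicate block 23 differences and 8 other Polycomb genes in siCARM1 were called. Depth limits CBX7 (186 to 521 counts per library) most.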

Other observations

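Between CBX6 and CBX7 on chromosome 22 lie APOBEC3 genes, paralogous cytidine deaminases, chosen for mention after their values were seen. In siCHD4 APOBEC3B (-0.96), APOBEC3C (-1.40) and APOBEC3F (-1.14) were called lower on the log2 scale, while APOBEC3G (-0.46) and APOBEC3H (-0.67) were not called. NPTXR, 28.2 kb from the start of CBX6, was higher by 1.36 in siCHD4. In the other knockdowns APOBEC3B was called lower in siCARM1 (-0.73), siHDAC2 (-0.55) and siGATAD2A (-0.40), APOBEC3C lower in siGATAD2A (-0.49), APOBEC3G higher in siCARM1 (0.79) and APOBEC3H higher in siHDAC2 (1.34). NPTXR was called lower in siCARM1 (-0.38) and siGATAD2A (-0.35) and higher in siKDM1A (0.55).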
